A study of Mus musculus with 10 samples.

Results

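Mitochondrial ribosomal proteins were examined in the hippocampus of inbred mice that explored an open field much or little. The set held every probe set of the array that was annotated with exactly 1 gene symbol and whose symbol began with Mrpl or Mrps followed by a digit, and all probe sets of a gene were kept. It comprised 156 of the 45101 probe sets on the array, from 76 of the 18194 genes with a probe set of their own: 104 probe sets of 47 Mrpl genes and 52 probe sets of 29 Mrps genes. The comparison was between 5 High Exploration mice and 5 Low Exploration mice. All 10 were Balb c/J females from the Jackson Laboratory, born on the same day, and were placed in their group by a composite score of open-field behaviour over several days. The labels name no mutant allele, treatment or agent in either group, so strain, sex, supplier and birth date are what both share. RNA of the whole hippocampus of each mouse was hybridised to its own Affymetrix Mouse 430 2.0 array, so each value below comes from a separate animal, and the mouse numbers within a group are only names. The groups are the ends of a ranking within an inbred strain and not an intervention, and open-field testing began in young adult mice and was repeated over several weeks.

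The mitochondrial ribosome is a separate ribosome inside mitochondria that translates the few proteins encoded by mitochondrial DNA, all of them subunits of the respiratory chain and the ATP synthase. Its ribosomal RNAs come from mitochondrial DNA, but all of its proteins are encoded in the nucleus, made on cytosolic ribosomes and imported. The large subunit (mostly Mrpl proteins) holds the site where peptide bonds form, and the small subunit (mostly Mrps proteins) reads the messenger RNA. Many of these proteins descend from bacterial ribosomal proteins, and the others were added during the evolution of mitochondria. Neurons depend on respiration for the ATP that ion pumping and synaptic transmission use, and inherited defects of several of these genes in humans cause combined deficiencies of the respiratory chain.

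No mitochondrial ribosomal protein differed between High and Low Exploration mice at an adjusted p below 0.05, and the set was split almost evenly between probe sets higher and probe sets lower in High Exploration mice. Of the 106 member probe sets that were bright enough to be tested, which represent 66 genes, 55 were higher and 51 were lower in High Exploration hippocampus, and their median log2 difference (High minus Low throughout) was 0.04. The middle of the distribution was wide, with quartiles at −0.53 and 0.81 and extremes of −1.95 and 2.35. Over all 22518 probe sets tested the median difference was −0.31, and 38.1% of them were higher in High Exploration mice, against 51.9% of the members.

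**Figure D1:**
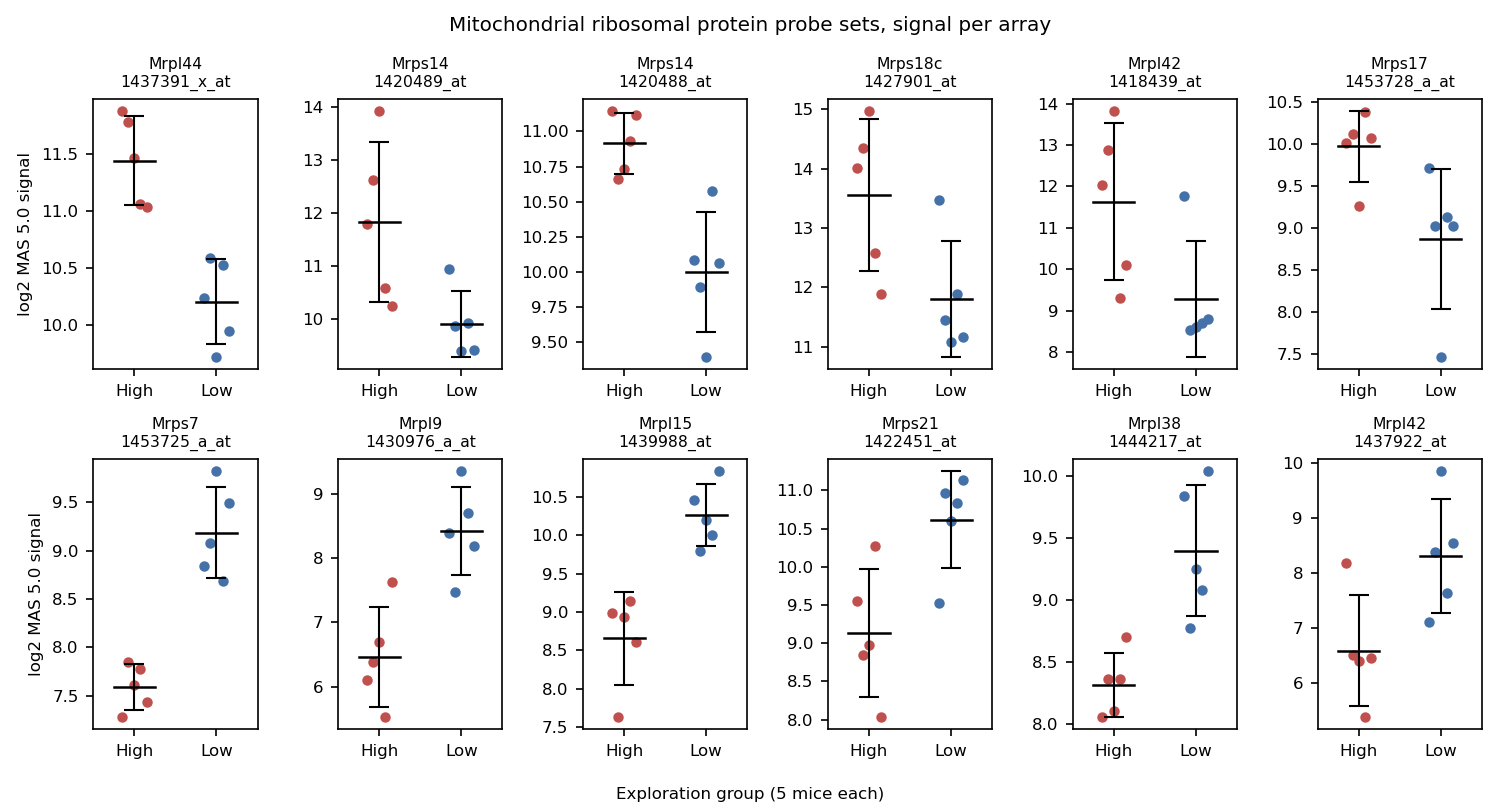
Log2 MAS 5.0 signal (vertical axis) of the 6 higher and the 6 lower tested member probe sets with the smallest limma p, with 1 point for each mouse, High Exploration left and Low Exploration right, and bars at the mean ± SD of 5 mice. The groups do not overlap for Mrpl44, for 1420488_at of Mrps14, for Mrps7, for Mrpl15 and for Mrpl38, and overlap in the other panels.

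The test was limma's moderated test on log2 signal with Benjamini-Hochberg adjustment over all 22518 probe sets, and 0 of the 106 member probe sets passed it in either direction. Beside this count, 0.0133% of all probe sets tested passed it, 3 in number and all 3 lower in High Exploration mice. The smallest adjusted p among the members was 0.0581. At an unadjusted limma p below 0.05, 11 members were higher (10.4%) and 12 were lower (11.3%), while over all probe sets tested 9.67% were higher and 20.5% lower at that level. The values of the groups did not overlap at 3 member probe sets that were higher in High Exploration mice (2.83%, against 2.14% of all probe sets tested) and at 4 that were lower (3.77%, against 6.69%). The member shares were thus near the background on the higher side and below it on the lower side. In simulated data of the same size, 2 of 50 changed probe sets were recovered at a log2 difference of 1, 17 of 50 at 2, 42 of 50 at 3 and 45 of 50 at 4, with 5 false calls. Differences of 1 were thus rarely found there with 5 arrays a group. Only those few probe sets were changed in the simulation. In the real data 30.2% of all probe sets tested had an unadjusted limma p below 0.05, so these rates need not hold for them.

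The arrays themselves differed between the groups in ways that touch every value below. Spiked bacterial hybridisation controls averaged 13.6 ± 0.31 log2 signal on High Exploration arrays, against 14.2 ± 0.29 on Low Exploration arrays (SD, n = 5 each; exact permutation p = 0.0159, 2-sided), and spiked poly-A controls, which are added to the RNA before labelling, averaged 12.5 ± 0.47 on High Exploration arrays and 14.1 ± 0.44 on Low Exploration arrays (exact permutation p = 0.00794, the smallest that 252 splits of the arrays can give). The 3' over 5' log2 ratio of Gapdh, which is higher when transcripts are shortened, averaged 4.72 ± 0.48 in High Exploration mice, against 3.72 ± 0.23 in Low Exploration mice (exact permutation p = 0.0159). The same ratio of actin averaged 5.30 ± 0.58 in High Exploration mice, against 4.97 ± 0.75 in Low Exploration mice, and overlapped between the groups (exact permutation p = 0.484). Summed signals of marker genes of neurons ran from 32442 to 48661 on High Exploration arrays and from 22908 to 31230 on Low Exploration arrays, and those of astrocytes from 44560 to 72198 on High Exploration arrays and from 24979 to 41415 on Low Exploration arrays, without overlap in either case. These are sums of linear signal, in which the brightest genes weigh most. Gja1 alone ran from 30488 to 43357 on High Exploration arrays and from 8698 to 24167 on Low Exploration arrays. Without Gja1 the astrocyte sums overlap between the groups, and without Syt1 the neuronal sums do. The markers of a list did not all differ the same way, since 6 tested neuronal markers were higher and 2 lower in High Exploration mice, and 3 tested astrocyte markers were higher (Gja1 by 1.25, Aqp4 by 0.75 and Gfap by 0.36) and 2 lower (Slc1a3 by −0.16 and Slc1a2 by −0.24). All 8 neuronal markers and 5 of 6 astrocyte markers were bright enough to be tested, none of them was at 0, and none of them passed limma's test at an adjusted p below 0.05, while 2 of 8 neuronal and 1 of 5 astrocyte markers had an unadjusted p below that level, as did 30.2% of all probe sets tested. Oligodendrocyte, microglial, endothelial and choroid plexus markers overlapped between the groups, and none of the 3 red blood cell markers measured reached the level for testing. The part of controls, RNA length and cell markers in the differences below was not tested, and in whole hippocampus a change in the number of cells of a type and a change in RNA per cell cannot be told apart.

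The mean log2 signal of the 106 tested members was 9.29, 9.47, 10.13, 9.12 and 9.39 on the arrays of High Exploration mice 1 to 5, and 9.77, 9.34, 9.37, 9.14 and 9.34 on those of Low Exploration mice 1 to 5. High Exploration mouse 3 was the highest of all 10, Low Exploration mouse 1 was the second highest, and the groups overlapped. The group means were 9.48 ± 0.38 in High Exploration mice, against 9.39 ± 0.23 in Low Exploration mice (SD, n = 5 each). The same 2 animals were also the highest of their groups for nuclear genes of respiratory complex I, taken as all symbols that start with Nduf. The means there were 12.79 for High Exploration mouse 3 and 11.81 for Low Exploration mouse 1. They were the highest for cytosolic ribosomal proteins too, with 13.61 for High Exploration mouse 3 and 12.73 for Low Exploration mouse 1. Without these 2 arrays together, a comparison chosen after the values were seen, the median difference of the members was −0.10, with 49 of 106 higher, and again none passed limma's test.

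**Figure D2:**
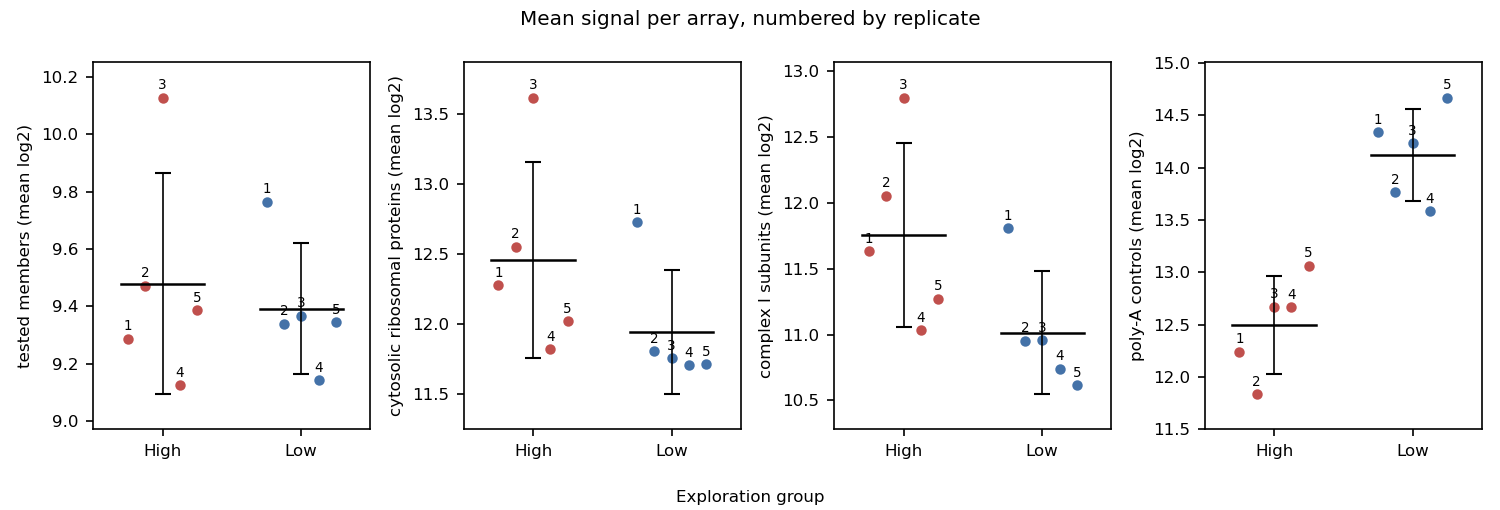
Mean log2 signal per array (vertical axes) of the tested members, cytosolic ribosomal proteins, complex I subunits and spiked poly-A controls, with 1 numbered point for each mouse, High Exploration left and Low Exploration right, and bars at the mean ± SD of 5 mice. High Exploration mouse 3 and Low Exploration mouse 1 are the highest of their groups in the first 3 panels, and the poly-A controls of the groups do not overlap.

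Among the members higher in High Exploration mice, Mrpl44 had the smallest limma p. Mrpl44, on chromosome 1, encodes a protein of the large subunit that is related to the RNA-cutting enzyme RNase III, and variants of the human gene cause a cardiomyopathy. At its probe set 1437391_x_at the log2 signals were 11.88, 11.79, 11.47, 11.06 and 11.04 in High Exploration mice, against 10.24, 10.59, 9.72, 10.53 and 9.95 in Low Exploration mice. Every High Exploration array lay above every Low Exploration array. The difference was 1.24 (SE 0.33), with an adjusted p of 0.0654 by limma and an exact permutation p of 0.00794. The second tested probe set of Mrpl44, 1452144_a_at, averaged 12.86 ± 0.23 in High Exploration mice, against 12.35 ± 0.46 in Low Exploration mice (SD, n = 5 each), a difference of 0.51 (SE 0.33, adjusted p = 0.292 by limma).

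Mrps14, also on chromosome 1, encodes the homologue of the bacterial small-subunit protein S14, and both of its tested probe sets were higher in High Exploration mice. At 1420488_at the log2 signals were 11.14, 10.66, 10.74, 10.93 and 11.11 in High Exploration mice, against 10.08, 9.89, 9.39, 10.58 and 10.06 in Low Exploration mice. The groups did not overlap, although Low Exploration mouse 4 lay just under the lowest High Exploration array. The difference was 0.92 (SE 0.32, adjusted p = 0.0948 by limma, exact permutation p = 0.00794). At 1420489_at the log2 signals were 11.80, 12.62, 13.92, 10.59 and 10.25 in High Exploration mice, against 10.95, 9.88, 9.41, 9.94 and 9.42 in Low Exploration mice, where Low Exploration mouse 1 exceeded 2 High Exploration arrays. The difference of 1.92 (SE 0.63) had an adjusted p of 0.0842 by limma and an exact permutation p of 0.0317, and was 0.36 with the hybridisation controls as a covariate. These controls themselves differed between the groups, so here and below a fit with them also takes up part of the group difference.

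The next 3 members on the higher side were less even between animals. Mrps18c encodes 1 of the mitochondrial homologues of bacterial S18, and its probe set 1427901_at was 1 of the 2 tested small-subunit probe sets with the highest mean signal. Its log2 signals were 14.01, 14.35, 14.97, 12.57 and 11.89 in High Exploration mice, against 13.47, 11.45, 11.07, 11.88 and 11.16 in Low Exploration mice. High Exploration mice 1 to 3 lay above all other arrays, while mice 4 and 5 fell below Low Exploration mouse 1. The difference was 1.75 (SE 0.62, adjusted p = 0.0977 by limma, exact permutation p = 0.0556), and was 0.027 with the hybridisation controls as a covariate.

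Mrpl42 encodes a mitochondria-specific protein. Its probe set 1418439_at had the largest positive difference of the tested members, 2.35 (SE 0.86, adjusted p = 0.103 by limma, exact permutation p = 0.0556), from log2 signals of 12.04, 12.89, 13.82, 9.30 and 10.10 in High Exploration mice, against 11.77, 8.52, 8.60, 8.70 and 8.79 in Low Exploration mice. Low Exploration mouse 1 lay above 2 High Exploration arrays, and the other 4 Low Exploration values lay within a narrow range below all High Exploration values. With the hybridisation controls as a covariate the difference was 0.15. Mrps17, the homologue of bacterial S17, had log2 signals of 10.01, 10.12, 9.26, 10.38 and 10.07 at 1453728_a_at in High Exploration mice, against 9.71, 9.03, 7.47, 9.13 and 9.02 in Low Exploration mice. High Exploration mouse 3 was the lowest of its group and fell below Low Exploration mouse 1, and the difference was 1.10 (SE 0.42, adjusted p = 0.115 by limma, exact permutation p = 0.0159).

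On the lower side the member with the smallest limma p was Mrps7, on chromosome 11, the homologue of bacterial S7, a protein that organises the head of the small subunit. At 1453725_a_at its log2 signals were 7.28, 7.85, 7.61, 7.78 and 7.43 in High Exploration mice, against 8.84, 9.08, 9.82, 8.68 and 9.50 in Low Exploration mice. Every High Exploration array lay below every Low Exploration array, with a gap wider than the spread of the High Exploration values. The difference was −1.60 (SE 0.33, adjusted p = 0.0581 by limma, exact permutation p = 0.00794).

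Mrpl9, the homologue of bacterial L9, gave the largest negative difference of the tested members at 1430976_a_at. Its log2 signals were 6.10, 6.38, 6.69, 5.52 and 7.63 in High Exploration mice, against 8.39, 7.48, 9.35, 8.70 and 8.18 in Low Exploration mice. Only High Exploration mouse 5 and Low Exploration mouse 2 crossed. The difference was −1.95 (SE 0.45, adjusted p = 0.0591 by limma, exact permutation p = 0.0159), and the other 2 tested probe sets of Mrpl9 were also lower in High Exploration mice. The mean over the 10 arrays of 1430976_a_at, 7.44, lay just above the level for testing of 7.43, while the first member below that level was a probe set of Mrpl3 at 7.33. The High Exploration arrays of 1430976_a_at averaged 6.47, below the level, against 8.42 for its Low Exploration arrays. This probe set was thus tested only because of its Low Exploration signal.

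Mrpl15, the homologue of bacterial L15, was lower without overlap at 1439988_at. Its log2 signals there were 8.98, 7.63, 8.93, 9.14 and 8.61 in High Exploration mice, against 10.46, 9.80, 10.20, 10.01 and 10.83 in Low Exploration mice. The lowest Low Exploration array stood above the highest High Exploration array, and the difference was −1.60 (SE 0.37, adjusted p = 0.0592 by limma, exact permutation p = 0.00794). Mrps21, the homologue of bacterial S21, had log2 signals of 9.56, 8.85, 8.98, 10.27 and 8.03 at 1422451_at in High Exploration mice, against 9.53, 10.97, 10.60, 10.84 and 11.14 in Low Exploration mice. Low Exploration mouse 1 was the lowest of its group and lay within the High Exploration range, and the difference was −1.48 (SE 0.46, adjusted p = 0.0766 by limma, exact permutation p = 0.0238).

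Mrpl38 and Mrpl42 are mitochondria-specific proteins of the large subunit. Mrpl38 had log2 signals of 8.06, 8.36, 8.11, 8.37 and 8.70 at 1444217_at in High Exploration mice, against 9.83, 8.77, 9.25, 9.08 and 10.04 in Low Exploration mice. The groups touched closely, at 8.70 in High Exploration mouse 5 and 8.77 in Low Exploration mouse 2, without overlap, and the difference was −1.08 (SE 0.34, adjusted p = 0.0800 by limma, exact permutation p = 0.00794). The second tested probe set of Mrpl42, 1437922_at, had log2 signals of 8.20, 6.52, 6.40, 5.39 and 6.46 in High Exploration mice, against 7.12, 8.39, 9.86, 7.65 and 8.55 in Low Exploration mice, with High Exploration mouse 1 above 2 Low Exploration arrays. Its difference of −1.72 (SE 0.57, adjusted p = 0.0873 by limma, exact permutation p = 0.0238) was opposite in sign to that of 1418439_at. The mean of 1437922_at over all arrays, 7.45, lay just above the level for testing of 7.43. Its High Exploration arrays averaged 6.59, below that level, against 8.31 for its Low Exploration arrays. It was thus tested only because of its Low Exploration signal. The last probe set without overlap on the lower side was 1437795_at of Mrpl21, the homologue of bacterial L21, at 8.28 ± 0.45 in High Exploration mice, against 9.19 ± 0.27 in Low Exploration mice (SD, n = 5 each; difference −0.92, adjusted p = 0.0983 by limma).

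**Figure D3:**
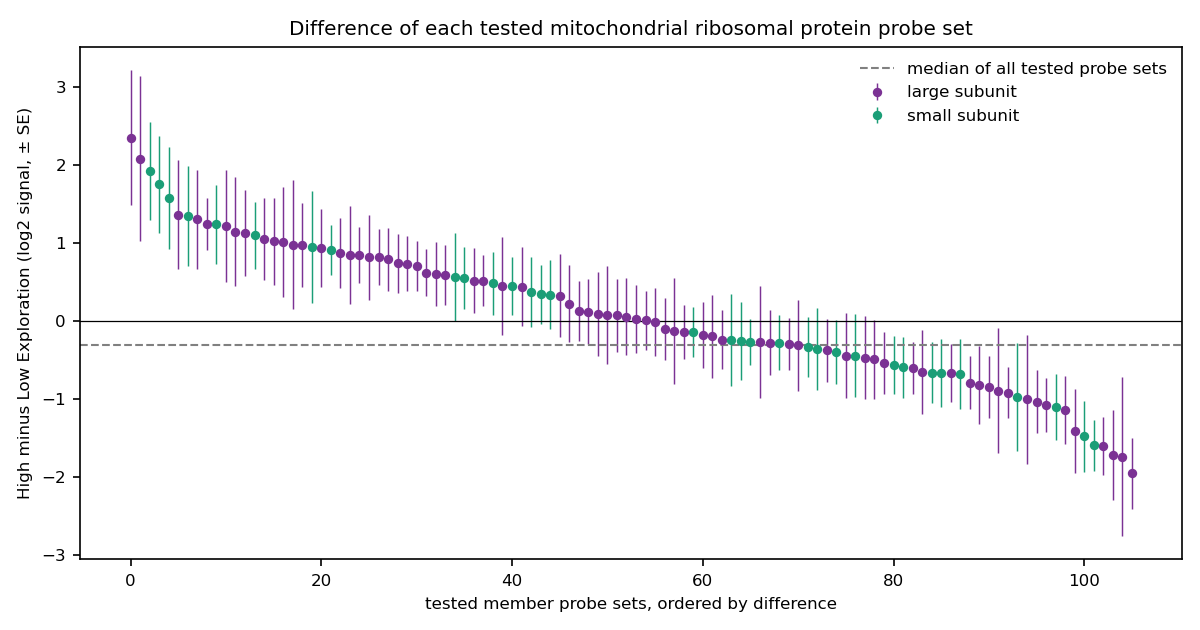
Log2 difference, High minus Low Exploration (vertical axis, ± SE from limma), of the 106 tested member probe sets in order of the difference, coloured by subunit, with the median of all probe sets tested, −0.31, as a dashed line. The differences run from 2.35 to −1.95, both at large-subunit probe sets, and the small subunit spans 1.92 to −1.60.

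The brightest large-subunit probe sets went in opposite directions. Mrpl39, a mitochondria-specific protein related in sequence to threonyl-tRNA synthetase, had log2 signals of 14.77, 14.97, 14.70, 14.76 and 14.81 at 1448909_a_at in High Exploration mice, against 14.46, 14.37, 13.72, 14.49 and 13.89 in Low Exploration mice. The High Exploration values were tightly grouped above all Low Exploration values, and the difference was 0.62 (SE 0.30, adjusted p = 0.185 by limma, exact permutation p = 0.00794). It was 0.030 with cyclic loess, 0.11 with quantile normalisation and 0.38 with the covariate, and 1.15 with median centring. Mrpl52, also mitochondria-specific, had log2 signals of 12.02, 12.64, 13.23, 13.48 and 13.90 at 1460701_a_at in High Exploration mice, against 13.25, 14.24, 14.63, 13.92 and 14.93 in Low Exploration mice. The highest High Exploration arrays reached into the lower part of the Low Exploration range, and the difference was −1.14 (SE 0.44, adjusted p = 0.112 by limma, exact permutation p = 0.0317), and was −0.030 with the covariate and −0.60 with median centring.

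Genes whose probe sets differed in sign were common. Of the 28 member genes with several tested probe sets, 14 had probe sets on both sides of 0 (50%), against 2365 of 4309 genes of the whole array with several tested probe sets (54.9%). The median spread between the probe sets of a member gene was 0.98, against 1.01 over all such genes. Mrpl42 had the widest spread of the members, 4.07, followed by Mrpl15 with 2.96 and Mrps24 with 2.14. The Mrpl42 spread rests in part on 1437922_at, whose mean signal lay just above the level for testing. The other 4 tested probe sets of Mrpl15 had differences of −0.85 (1430798_x_at), 1.36 (1434970_a_at), 0.98 (1434971_x_at) and 0.22 (1435232_x_at), with adjusted p by limma of 0.171, 0.199, 0.426 and 0.778. The Low Exploration arrays of 1434971_x_at averaged 7.20, below the level for testing of 7.43, against 8.18 for its High Exploration arrays. This probe set was thus tested only because of its High Exploration signal. At Mrps24, the homologue of bacterial S3, 1438563_s_at averaged 13.23 ± 0.70 in High Exploration mice, against 13.79 ± 0.23 in Low Exploration mice, and 1450865_s_at averaged 9.53 ± 1.47 in High Exploration mice, against 7.95 ± 0.90 in Low Exploration mice (SD, n = 5 each). These differences were −0.56 and 1.58, with adjusted p of 0.312 and 0.133 by limma. Mrps14, Mrpl44, Mrpl39, Mrpl41, Mrpl35, Mrpl3 and Mrpl57 had all tested probe sets higher in High Exploration mice, though at Mrpl57 by at most 0.07, and Mrpl9, Mrpl28, Mrpl21, Mrpl52, Mrps5, Mrps15 and Mrps23 had all of theirs lower.

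Members chosen for what their human forms are known for did not differ at an adjusted p below 0.05 either. Mrpl12, a protein of the stalk of the large subunit whose human form also binds the mitochondrial RNA polymerase, had log2 signals of 5.75, 7.16, 11.26, 7.35 and 9.07 at 1452048_at in High Exploration mice, against 9.79, 9.24, 9.58, 7.91 and 9.09 in Low Exploration mice. High Exploration mouse 3 was the highest of all arrays and High Exploration mouse 1 the lowest, and the difference was −1.01 (SE 0.82, adjusted p = 0.410 by limma). It was −1.79 without High Exploration mouse 3 and −0.41 without High Exploration mouse 1. Mrps16, the homologue of bacterial S16, whose human gene causes a combined oxidative phosphorylation deficiency, had log2 signals of 10.58, 10.42, 12.45, 10.53 and 10.57 at 1448869_a_at in High Exploration mice, against 11.05, 8.38, 7.76, 10.55 and 10.11 in Low Exploration mice. High Exploration mouse 3 stood far above the other 4, which lay within the Low Exploration range, and the difference was 1.34 (SE 0.64, adjusted p = 0.176 by limma), or 0.89 without Low Exploration mouse 3.

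Mrps22, Mrpl3 and Mrps34, also genes of human combined oxidative phosphorylation deficiencies, had differences of 0.55, 0.82 and 0.37, with adjusted p of 0.354, 0.312 and 0.589 by limma. Mrps12, a protein of the decoding site, was too dim to be tested and averaged 7.44 ± 1.32 in High Exploration mice, against 6.48 ± 0.36 in Low Exploration mice (SD, n = 5 each; exact permutation p = 0.143). Mrps36, which is now known as a subunit of the 2-oxoglutarate dehydrogenase complex rather than of the ribosome, is a member by its symbol and had a log2 difference of −0.66 (SE 0.39, adjusted p = 0.257 by limma).

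Higher and lower members were mixed in both subunits. When Mrps30 and Mrps18a, which sit in the large subunit despite their names, were counted there, the 73 tested probe sets of the large subunit had a median difference of 0.07, with 40 higher and 33 lower in High Exploration mice. The 33 of the small subunit had a median of −0.24, with 15 higher and 18 lower. Mrps36 was left in this count and among the mitochondria-specific proteins below, although it is not a protein of the ribosome. The 64 probe sets of proteins with bacterial homologues had a median of 0.01, with 32 higher and 32 lower, and the 42 of mitochondria-specific proteins had a median of 0.08, with 23 higher and 19 lower. Of the 20 tested probe sets of conserved small-subunit proteins, 6 were higher and 3 lower at an unadjusted limma p below 0.05, and none of the 13 of mitochondria-specific small-subunit proteins reached that level. Over all probe sets tested 9.67% were higher and 20.5% lower at that level, so 3 of 20 lower (15%) is below that share and 6 of 20 higher (30%) above it. Those shares cover all levels of signal. Among all probe sets tested with a mean log2 signal above 9.78, 23.9% were higher and 9.4% lower. Several of the 6 lie in that range, among them Mrps18c and Mrps14, which is counted at both of its tested probe sets. These counts are a description, and no difference between the classes was tested.

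The difference of a member went with how bright its probe set was. The tested members were divided into 3 classes of similar size by their mean log2 signal over the 10 arrays, with edges at 8.59 and 9.78. In the dimmest class 10 probe sets were higher and 26 lower in High Exploration mice, with a median difference of −0.27, and in the middle class 17 were higher and 18 lower, with a median of −0.01. In the brightest class 28 were higher and 7 lower, with a median of 0.70. The same order was present among all probe sets tested in these ranges, whose medians were −0.56, −0.33 and 0.34. Of all probe sets tested in these ranges 25.7%, 36.6% and 61.8% were higher, against 27.8%, 48.6% and 80% of the members. In each class the median of the members lay above that of all probe sets, by an amount that was not tested.

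**Figure D4:**
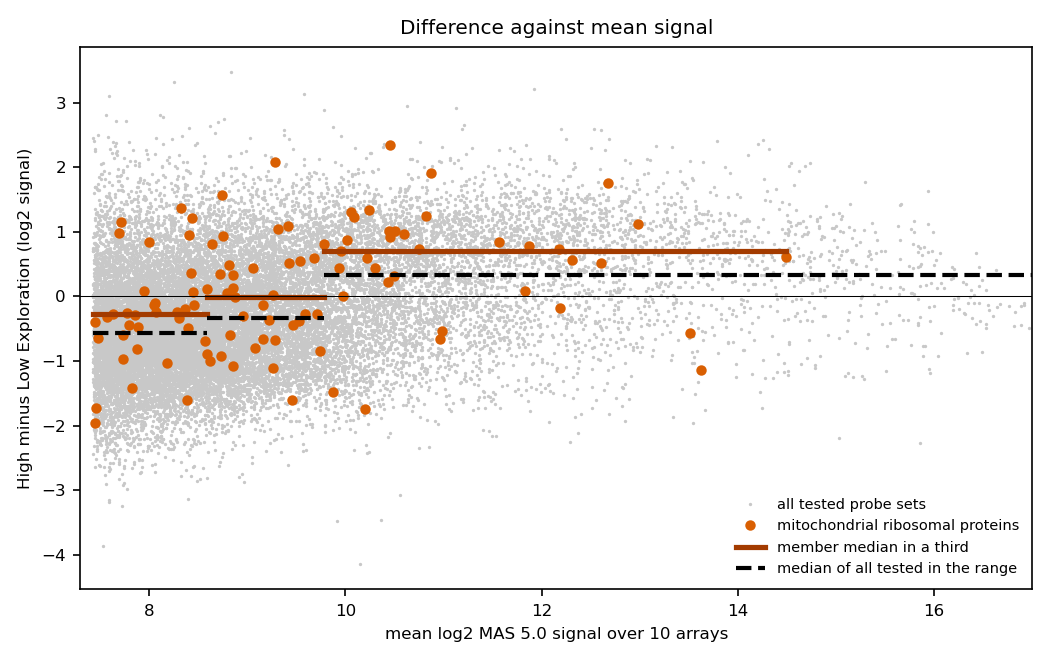
Log2 difference, High minus Low Exploration (vertical axis), against mean log2 signal over 10 arrays (horizontal axis) for the 106 tested members (large points) and all 22518 probe sets tested (small points), with solid and dashed lines at the medians of members and of all probe sets in 3 classes of signal. The member medians are −0.27, −0.01 and 0.70 from the dimmest to the brightest class.

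The 50 member probe sets below the level for testing had 20 higher and 30 lower in High Exploration mice and a median difference of −0.25, against −0.62 over all probe sets not tested. Their differences ran from −2.84 to 1.60 and the groups overlapped at every one of them. Overlap was not counted over all probe sets not tested, so this cannot be set against a background. For 10 genes no probe set was tested: Mrpl18, Mrpl19, Mrpl37, Mrpl45, Mrpl55, Mrps11, Mrps12, Mrps18b, Mrps27 and Mrps28.

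Other large families, whose probe sets were brighter, differed more to one side than the mitochondrial ribosomal proteins did. The median of the mean log2 signals was 11.07 for complex I subunits and 12.49 for cytosolic ribosomal proteins, against 9.16 for the members. Complex I is built in part from proteins made on mitochondrial ribosomes. Its subunits were taken as all genes with a symbol that starts with Nduf, so assembly factors with such symbols were not left out. Their 73 tested probe sets had a median difference of 0.73, with 59 higher and 14 lower in High Exploration mice. The 77 of cytosolic ribosomal proteins, the counterparts that translate nuclear-encoded messengers, had a median of 0.62, with 59 higher and 18 lower. In the brightest class of members, 28 of 35 were higher and the median was 0.70, close to both families. Both families were high on the arrays of High Exploration mouse 3 and Low Exploration mouse 1, as were the members. These differences between families, and the part of brightness in them, were not tested.

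The median of the members moved with the way the arrays were put on a common scale. With quantile normalisation the member median was 0.25, with 70 of 106 higher, while that of all probe sets was −0.01. With each array centred on its median the values were 0.58, with 79 higher, and 0.23, and with the hybridisation controls set equal on all arrays they were 0.65, with 83 higher, and 0.30. With the hybridisation controls as a covariate the member median was −0.14, with 45 higher, and that of all probe sets was −0.12. Complex I subunits and cytosolic ribosomal proteins had medians of 1.27 and 1.16 under median centring, and of −0.03 each under the covariate. Median centring and equal controls add the same amount to every probe set of an array, so the distance between the members and all probe sets is fixed there to that of the signal as deposited. With the covariate the members were close to all probe sets. The hybridisation controls averaged 13.6 on High Exploration arrays and 14.2 on Low Exploration arrays, so the covariate and the groups cannot be fully told apart. A difference near 0 with the covariate therefore does not show where the difference comes from.

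Some members passed limma's test under an alternative treatment of the same signals, where many more of all probe sets passed as well. With median centring these were Mrps14 (1420488_at) and Mrpl44 (1437391_x_at), both higher in High Exploration mice, where 3.69% of all probe sets were called higher. With a pseudocount they were Mrps7 and Mrpl15 (1439988_at), both lower, where 1.44% of all were called lower. With array weights 4 members were called higher and 4 lower, against 2.72% and 6.99% of all probe sets, and without High Exploration mouse 5 it was 1 higher (Mrps14, 1420489_at) and 3 lower (Mrpl9, Mrpl15 and Mrps7), against 0.768% and 3.86% of all.

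**Figure D5:**
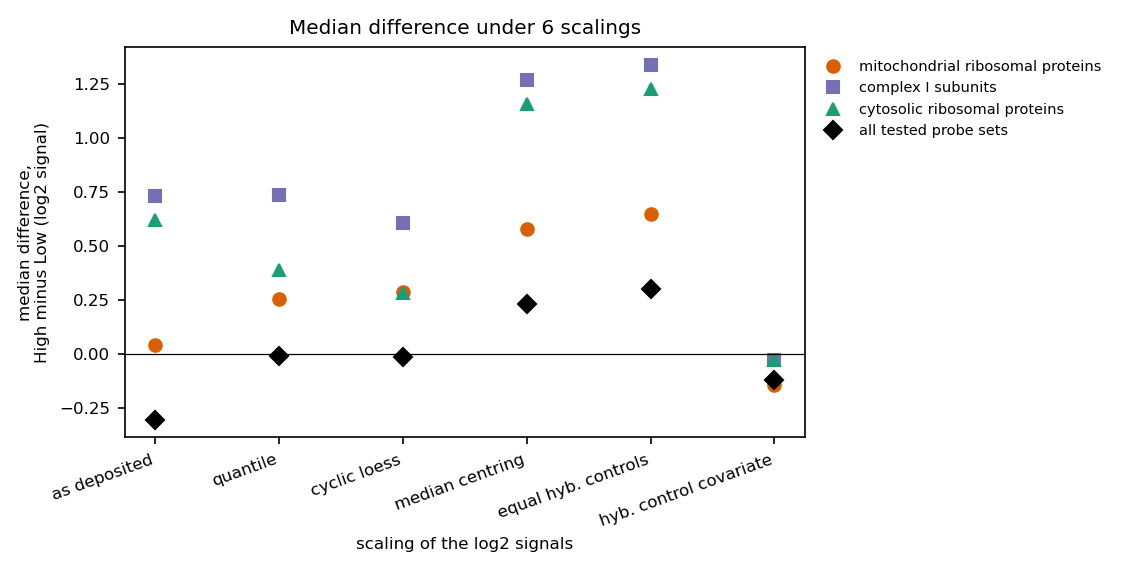
Median log2 difference, High minus Low Exploration (vertical axis), of the members, complex I subunits, cytosolic ribosomal proteins and all probe sets tested, under each scaling of the signals (horizontal axis). The member median runs from −0.14 with the hybridisation controls as a covariate to 0.65 with those controls set equal.

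Genes that work with the mitochondrial ribosome likewise gave no adjusted p below 0.05 in limma. Of the ribosomal proteins not named Mrp, 3 of 4 measured were tested and 2 were higher in High Exploration mice. Chchd1, a small-subunit protein, had log2 signals of 14.43, 14.71, 15.35, 12.58 and 12.51 in High Exploration mice, against 14.24, 11.91, 10.74, 10.59 and 11.49 in Low Exploration mice. Low Exploration mouse 1 lay above 2 High Exploration arrays here too, and the difference was 2.12 (SE 0.73, adjusted p = 0.0928). Dap3, another small-subunit protein, had a difference of 0.79 (adjusted p = 0.470).

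Of the 7 translation factors tested, 1 was higher and 6 were lower in High Exploration mice, with a median of −0.28. Their 2 lowest p-values belonged to Mtif2, the initiation factor, at −0.41 (adjusted p = 0.440), and Tsfm, an elongation factor, at −0.57 (adjusted p = 0.468). Of the 17 assembly factors tested, 6 were higher and 11 lower, with a median of −0.21. Nsun4, a methyltransferase that acts on mitochondrial ribosomal RNA, averaged 8.16 ± 0.72 in High Exploration mice, against 9.54 ± 0.38 in Low Exploration mice (SD, n = 5 each) without overlap (difference −1.38, SE 0.39, adjusted p = 0.0690), and Dhx30, a helicase, differed by 0.83 (adjusted p = 0.163).

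Of the 13 mitochondrial aminoacyl-tRNA synthetases tested, which load amino acids onto mitochondrial tRNAs, 4 were higher and 9 lower in High Exploration mice, with a median of −0.29. Lars2, for leucine, differed by 0.98 (adjusted p = 0.108) and Ears2, for glutamate, by −1.16 (adjusted p = 0.138). Of 11 genes for transcription of mitochondrial DNA and for its messenger RNAs, 7 were higher and 4 lower, with a median of 0.07. Slirp, which binds mitochondrial messenger RNAs together with Lrpprc, averaged 15.54 ± 0.81 in High Exploration mice, against 13.51 ± 1.59 in Low Exploration mice (SD, n = 5 each; difference 2.03, SE 0.68, adjusted p = 0.0877), with Low Exploration mouse 1 at 16.34 within the High Exploration range. Supv3l1, a mitochondrial RNA helicase, differed by −1.11 (SE 0.39, adjusted p = 0.0951). Adjusted p-values in these lists are from the same limma fit over all probe sets, and at an unadjusted p below 0.05 there were 1 ribosomal protein, 0 translation factors, 2 assembly factors, 4 synthetases and 2 genes of the last list. Together these are 9 of 51 genes (17.6%), below the 30.2% of all probe sets tested at that level.

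Some promoters of these genes carry sequence features that the choice of members did not use, though most lack each of them. Nuclear respiratory factor 1 (NRF1) and the ETS-family factor GABP (NRF2) are known to bind promoters of nuclear genes for mitochondrial proteins. RefSeq promoters of build GRCm38.p6, from 250 bases before to 50 after the transcription start, were found for 67 of the 76 genes, 73 promoters in all, and were searched on both strands. The ETS core CCGGAAG was present in 25 of 73 member promoters (34.2%), against 8.86% of 32851 promoters. The NRF1 core GCGCATG was present in 8 (11%, against 3.91% of all), and the full palindrome of 10 letters, in which that core and its reverse complement overlap, in 3 (4.11%, against 0.971%). These matches are a description of letters and not of binding, and promoters of like base composition were not compared.

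The following 4 promoters are given as examples of members that carry the same letters. They were chosen because their genes differed to opposite sides, so they say nothing of how often that occurs. The 200 bases before the transcription start are given 5' to 3' on the strand of the gene, with the match in capitals. The NRF1 palindrome lies in the promoters of Mrpl39, higher in High Exploration mice at both tested probe sets, and of Mrpl9, lower at all 3. The ETS core lies, read on the opposite strand as CTTCCGG, in those of Mrps18c, with a difference of 1.75, and of Mrpl52, with −1.14 at its brightest probe set, both of which were near 0 with the covariate.
Mrpl39, chr16:84735245-84735444, minus strand: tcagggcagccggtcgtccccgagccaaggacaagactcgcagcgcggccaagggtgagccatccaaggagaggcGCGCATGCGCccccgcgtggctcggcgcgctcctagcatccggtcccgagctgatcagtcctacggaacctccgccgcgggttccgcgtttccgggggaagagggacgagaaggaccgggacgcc
Mrpl9, chr3:94443136-94443335, plus strand: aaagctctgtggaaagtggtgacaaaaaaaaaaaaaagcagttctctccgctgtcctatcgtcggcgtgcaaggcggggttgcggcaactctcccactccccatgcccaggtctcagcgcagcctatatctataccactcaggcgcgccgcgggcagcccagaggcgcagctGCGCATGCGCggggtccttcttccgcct
Mrps18c, chr5:100798559-100798758, plus strand: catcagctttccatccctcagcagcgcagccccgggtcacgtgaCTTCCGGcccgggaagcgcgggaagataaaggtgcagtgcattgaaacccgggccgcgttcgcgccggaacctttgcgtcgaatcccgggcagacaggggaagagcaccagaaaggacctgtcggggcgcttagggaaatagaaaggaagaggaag
Mrpl52, chr14:54426709-54426908, plus strand: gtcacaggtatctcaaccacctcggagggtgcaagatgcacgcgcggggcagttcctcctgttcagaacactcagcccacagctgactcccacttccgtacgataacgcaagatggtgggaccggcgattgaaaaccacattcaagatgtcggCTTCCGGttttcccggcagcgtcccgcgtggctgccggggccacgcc
The matches shown began 125 bases before the start in Mrpl39 and 28 in Mrpl9, and 156 bases before it in Mrps18c and 47 in Mrpl52. Mrpl52 carries another ETS core that begins 2 bases after the start, past the bases printed. Across the tested probe sets of genes with a promoter, those with an ETS core had a median difference of 0.05, with 18 of 32 higher in High Exploration mice, and those without had a median of 0.02, with 30 of 60 higher. For the NRF1 core the medians were 0.29, with 6 of 10 higher, and 0.02, with 42 of 82 higher. Neither difference between promoters with and without a core was tested.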

How the data were processed

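Hippocampal RNA of 5 High Exploration and 5 Low Exploration mice was measured, with 1 array for each mouse. The authors deposited MAS 5.0 signals, which are linear intensity values made in Expression Console, and each deposited array had a 2% trimmed mean of 500. The labels name a standard protocol and the study's methods a double round of amplification, so the labelling is not settled. Groups followed the sample titles, because the series design text describes another experiment. Control probe sets (64) were left out, and the 22518 probe sets whose mean log2 signal over the 10 arrays exceeded the median, 7.43, were tested with lmFit and eBayes of limma 3.58.1 (R 4.3.3), 2-sided, with p-values adjusted by the Benjamini-Hochberg method over all of them (threshold 0.05). No further normalisation was applied. Single values were also tested by exact permutation over 252 splits (numpy 2.4.6), unadjusted. The fit was tested on simulated data.

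Probe sets were named from the platform annotation: 34958 carried 1 symbol, 932 several and 9211 none, and 4 probe sets that share a member symbol with another gene were left out. Members and lists were chosen with earlier results of these data known. Probe sets named in the text were the 6 higher and 6 lower members with the smallest limma p, the 2 of each subunit with the highest mean signal, those of the 3 genes with the widest spread between probe sets, 7 genes picked for human biology and, of each related list, the 2 genes with the smallest p. Mrpl21, Mrps36 and the other genes outside this rule were added after their values were seen. Alternatives covered the filter, 4 scalings, a pseudocount and a floor at the 10th percentile (23.0), array weights, a covariate, the probe set rule and leaving out arrays. The number of arrays limits the precision.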

Additional observations from a re-analysis of the deposited data

Results flagged for a closer look

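Groups of 5 arrays were examined for the 27 named probe sets and for the mean signal of the tested members, 56 groups in all, and in 4 of them, all of named probe sets, 1 array stood apart from the other 4 by more than Dixon's critical value of 0.71, which chance alone gives in about 1 of 20 groups. At Mrps16 (1448869_a_at), High Exploration mouse 3 had a log2 signal of 12.45, while the other High Exploration mice lay between 10.42 and 10.58. At 1434970_a_at of Mrpl15, High Exploration mouse 3 had 10.48 against 8.32 to 8.92 in the rest of its group, and Low Exploration mouse 3 likewise had 10.48 against 6.42 to 7.43. At 1418439_at of Mrpl42, Low Exploration mouse 1 had 11.77 against 8.52 to 8.79 in the rest of its group. High Exploration mouse 3 and Low Exploration mouse 1 were also the arrays with the highest mean signal of the members in their groups.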

How the results depend on the processing

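Of 521 recomputed differences of the 27 named probe sets, 498 kept their direction and their side of the threshold, 16 passed it only under an alternative and 7 changed sign, none of them among the 6 higher and 6 lower probe sets with the smallest p. The sign changes were Mrps24 1438563_s_at at 0.043 with equal hybridisation controls, Mrpl44 1452144_a_at at −0.0063 with quantile normalisation, Mrpl15 1434971_x_at at −0.47, Mrps22 at −0.22 and Mrpl3 at −0.084 with the hybridisation controls as a covariate, and Mrpl15 1435232_x_at, which ran from −0.052 (without High Exploration mouse 3) to 0.53 when 1 array was left out and was −0.13 without High Exploration mouse 3 and Low Exploration mouse 1, an alternative chosen after seeing the data. The cause was not tested. Sizes moved more than signs: of the 26 tested named probe sets, 18 moved by over 1.5 times with equal hybridisation controls, 16 with median centring, 16 with the covariate, 8 with cyclic loess and 6 with quantile normalisation, and 10 did so when some 1 array was left out, most often High Exploration mouse 3 (6). With the covariate, which itself differed between the groups, Mrps18c was at 0.027, Mrpl42 1418439_at at 0.15, Mrps14 1420489_at at 0.36, Mrps24 1450865_s_at at 0.37 and Mrpl52 at −0.030.

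The member count of 0 became 2 higher (Mrps14 1420488_at and Mrpl44 1437391_x_at) with median centring, where 3.69% of all probe sets tested were called higher, 2 lower (Mrps7 and Mrpl15 1439988_at) with the pseudocount, where 1.44% were called lower, and 4 higher and 4 lower with array weights, where 2.72% were called higher and 6.99% lower. Leaving out 1 array gave 0 to 1 higher and 0 to 3 lower, with the largest counts without High Exploration mouse 5 (Mrps14 1420489_at higher, and Mrpl9, Mrpl15 and Mrps7 lower). Without that mouse 0.768% of all probe sets tested were called higher and 3.86% lower. The member median was 0.58 with median centring and 0.65 with equal hybridisation controls, and ran from −0.10 (without High Exploration mouse 3) to 0.10 when 1 array was left out.

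Over all probe sets, 0 higher and 3 lower became 3 and 29 without the filter, 830 and 76 with median centring, 42 and 324 with the pseudocount, and 612 and 1574 with array weights. The count higher was 1 with quantile normalisation, 2 with cyclic loess and 1 with the floor. The count lower was 0 with equal hybridisation controls, with the covariate, with 1 probe set per gene and with the mean per gene. Leaving out 1 array gave 0 to 173 higher and 2 to 869 lower, with 173 and 869 without High Exploration mouse 5 and 11 lower without High Exploration mouse 3 or Low Exploration mouse 1. No paired analysis was possible because the labels give the arrays no shared replicate numbers.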
